A study of Mus musculus with 6 samples.

Results

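The 6 genes described here encode proglucagon (Gcg) and the proteins that process it in the secretory pathway: the prohormone convertases Pcsk1 and Pcsk2, their binding partners Pcsk1n and Scg5, and carboxypeptidase E (Cpe). They were chosen by gene symbol for their part in making glucagon from its precursor, out of 55487 genes in the count table. RNA was measured in αTC1 cells, a mouse pancreatic α cell line marked as wild type in the column names of all libraries, in 3 libraries of cells given G786-1089 and in 3 libraries of cells given the solvent DMSO alone. The labels give G786-1089 by its code name only, and it was taken to be the inhibitor of the splicing factor SMNDC1 that the series' design text names. The line was established from a glucagonoma of a mouse that carried the simian virus large T antigen under the rat preproglucagon promoter, so it is a dividing tumour line and not a primary α cell. The labels state neither the dose nor the duration of treatment, nor whether the libraries of a group came from separate cultures. The study's methods say of its cell experiments in general that treatments were given to portions of a common batch of cells and that samples of a replicate were handled together, so p-values describe the spread between these libraries, which may be technical.

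Proglucagon is a single precursor that holds several peptides, separated by pairs of basic residues. In α cells the convertase encoded by Pcsk2 cuts it to release glucagon, whereas in intestinal L cells the convertase encoded by Pcsk1 cuts it to release GLP-1 and GLP-2. Carboxypeptidase E then removes the basic residues left at the end of the cut peptide, Scg5 is the chaperone that the Pcsk2 product needs to become active, and Pcsk1n (proSAAS) inhibits the Pcsk1 product.

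In the annotation of GRCm38, Gcg (ENSMUSG00000000394) lies on the minus strand of chromosome 2 from 62474530 to 62483650 and has 6 exons, which together hold 1088 bases. Its 540 coding bases give a precursor of 180 residues with 7 pairs of adjacent basic residues, 3 of them Lys-Arg. The coding sequences of glucagon and of GLP-1 are shown because the convertases differ in which of these peptides they release. The glucagon stretch lies in exon 3 at chr2:62478560-62478658, minus strand, and codes for 29 residues (53 to 81 of the precursor) between Lys-Arg pairs. The GLP-1 stretch lies in exon 4 at chr2:62476826-62476948, minus strand, and codes for 37 residues (92 to 128). Both were read from the annotated transcript, with the codons of the flanking basic pairs in capitals. In the GLP-1 stretch the codon of the single arginine at which the longer peptide is trimmed is in capitals as well.
glucagon: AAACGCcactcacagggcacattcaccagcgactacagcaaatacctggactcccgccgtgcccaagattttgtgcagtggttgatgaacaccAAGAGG
GLP-1: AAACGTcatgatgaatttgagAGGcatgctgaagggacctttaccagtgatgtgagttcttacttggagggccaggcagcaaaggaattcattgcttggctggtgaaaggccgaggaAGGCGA

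Gcg was much lower with G786-1089. In the DMSO libraries A, B and C it stood at 20242, 20448 and 22881 CPM (counts per 1000000 of a library whose size is corrected by its TMM factor). In the G786-1089 libraries A, B and C it stood at 3603, 2832 and 2941 CPM. The groups did not overlap, and the highest treated library lay far below the lowest DMSO library. The mean was 3125 ± 417 CPM with G786-1089 against 21190 ± 1468 CPM with DMSO (SD, n = 3 each), so that 14.7% of the DMSO level was left. The log2 fold change was -2.76 (standard error 0.10, 95% confidence interval -3.01 to -2.51), a 6.78-fold lower level, with an adjusted p = 0.000102 (edgeR's quasi-likelihood test, Benjamini-Hochberg procedure over 15082 tested genes). By p-value Gcg ranked 6 among these genes.

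The size of this decrease stood out among abundant transcripts. Gcg held the largest number of counts of all genes in each DMSO library, and rank 18, 24 and 22 in the G786-1089 libraries A, B and C. Of the 143 genes with a mean of at least 1000 CPM in DMSO, Gcg had the largest decrease on the log2 scale. Of the 1177 genes called lower at an adjusted p-value under 0.05, 85 had a larger fitted decrease, and 1 of these had a mean above 100 CPM in DMSO. That gene, Btbd17, was named after its values were seen and stood at 12.8 ± 2.67 CPM against 233 ± 16.9 CPM (SD, n = 3 each). In absolute terms Gcg lost 18065 CPM, which was 6.80% of all decreases in mean CPM summed over the tested genes, and the next largest loss was 5701 CPM. The 6 genes together held 0.520% to 0.593% of all counts with G786-1089 and 2.19% to 2.40% with DMSO.

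**Figure D1:**
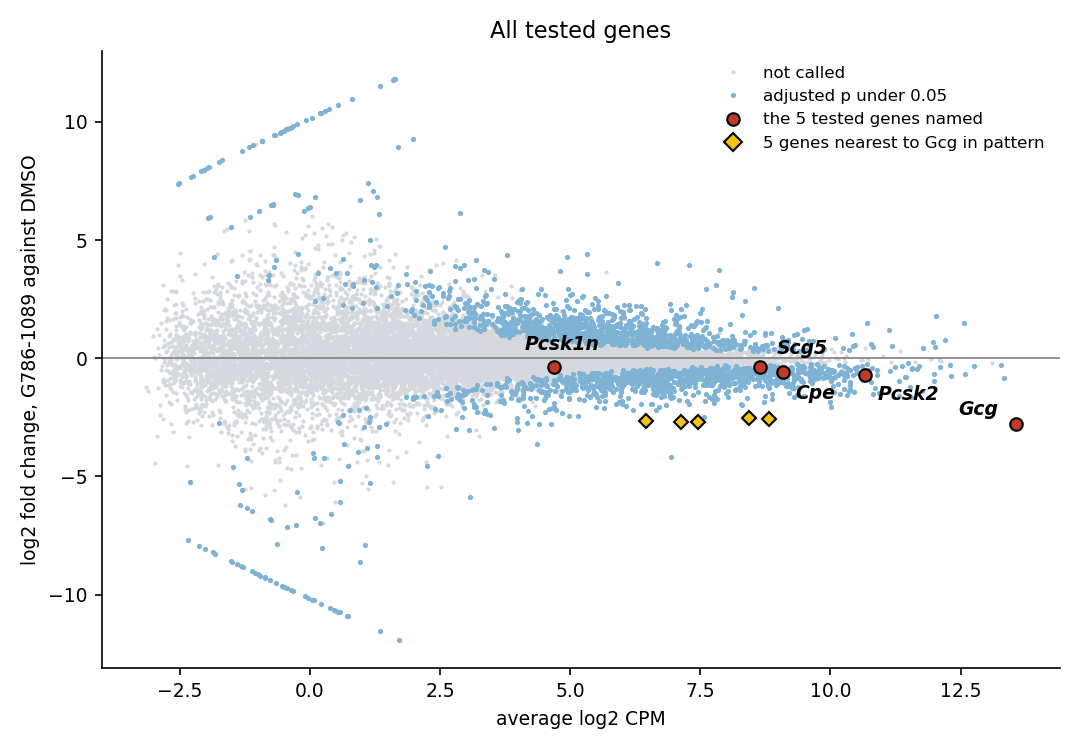
Log2 fold change of G786-1089 against DMSO (vertical axis) against average log2 CPM (horizontal axis) for the 15082 tested genes, 1 point a gene, with genes at an adjusted p under 0.05 in blue. Gcg lies at the far right at a log2 fold change of -2.76, Pcsk2, Cpe and Scg5 lie between -0.71 and -0.36, and Pcsk1n at -0.35 is not called.

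Pcsk2, the convertase that releases glucagon, was also lower with G786-1089, by a smaller factor. Pcsk2 (ENSMUSG00000027419) lies on the plus strand of chromosome 2 from 143546156 to 143816285 with 4723 exon bases. It stood at 2019, 1988 and 2015 CPM in the DMSO libraries A, B and C. With G786-1089 it stood at 1194, 1227 and 1261 CPM. Libraries of the same treatment lay close together and the groups did not overlap. The means were 1227 ± 33.3 CPM and 2007 ± 17.2 CPM (SD, n = 3 each), or 61.1% of the DMSO level. The log2 fold change was -0.71 (standard error 0.04, 95% confidence interval -0.82 to -0.60), a 1.64-fold lower level, with an edgeR adjusted p = 0.00033. Exons of the antisense genes Pcsk2os1 and Pcsk2os2 cover 7.14% of its exon bases, and reads were counted irrespective of strand. The counts of Pcsk2os1 came to at most 0.726% of those of Pcsk2 in any library. These counts do not show how reads over the shared bases were assigned.

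Scg5, which encodes the chaperone of the Pcsk2 product, was lower by less, and its call was not stable. Scg5 (ENSMUSG00000023236) lies on the minus strand of chromosome 2 from 113776362 to 113829121. It stood at 479, 403 and 466 CPM in the DMSO libraries A, B and C. With G786-1089 it stood at 343, 373 and 332 CPM, so the groups did not overlap, although DMSO library B came near the treated ones. The means were 349 ± 21.2 CPM and 450 ± 40.7 CPM (SD, n = 3 each). The log2 fold change was -0.36 (standard error 0.09, 95% confidence interval -0.58 to -0.14), with an edgeR adjusted p = 0.0437. This call was lost in 7 of 12 other ways of processing and in 5 of the 6 fits that left out 1 library. With library size as the only scaling the log2 fold change was -0.16 (adjusted p = 0.289), and with offsets for gene length it was -0.17 (adjusted p = 0.31). With the letter of the columns as a replicate block it was -0.36 (adjusted p = 0.123). Without DMSO library B it was -0.44 (edgeR adjusted p = 0.0406), and without any 1 of the other libraries the adjusted p-value ran from 0.0623 to 0.136.

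Cpe, the carboxypeptidase that trims the cut peptides, was lower with G786-1089. Cpe (ENSMUSG00000037852) lies on the minus strand of chromosome 8 from 64592542 to 64693054. In the DMSO libraries A, B and C it stood at 626, 672 and 663 CPM. In the G786-1089 libraries it stood at 403, 466 and 438 CPM. Every treated library was below every DMSO library. The means were 436 ± 31.2 CPM and 654 ± 24.3 CPM (SD, n = 3 each), or 66.7% of the DMSO level. The log2 fold change was -0.59 (standard error 0.08, 95% confidence interval -0.77 to -0.41), with an edgeR adjusted p = 0.00419. It was called in all 12 other ways of processing, and library size as the only scaling gave the smallest decrease, a log2 fold change of -0.38 (adjusted p = 0.0177).

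Pcsk1n and Pcsk1, the inhibitor and the convertase of the intestinal route, were the least abundant. Pcsk1n (ENSMUSG00000039278) lies on the plus strand of chromosome X from 7919822 to 7924410, and Pcsk1 (ENSMUSG00000021587) on the plus strand of chromosome 13 from 75089826 to 75134861. Pcsk1n stood at 27.2, 33.3 and 26.2 CPM in the DMSO libraries A, B and C and at 20.6, 24.2 and 23.0 CPM in the G786-1089 libraries. The groups did not overlap, but the spread within them was wide for the size of the difference. The log2 fold change was -0.35 (standard error 0.19, 95% confidence interval -0.80 to 0.09), and the change did not pass the test (edgeR adjusted p = 0.278). Of its exon bases 6.16% overlap Eras, which had 0 counts in every library. The study's methods name the Union mode of the summarizeOverlaps function for counting. What it did with reads over the shared bases was not examined. Pcsk1 had 0 counts in 4 of the 6 libraries, 20 counts in G786-1089 library C and 10 counts in DMSO library C. These are 0.231 and 0.184 CPM, and the 3 counts that a count of 0 allows correspond to 0.0300 to 0.0493 CPM in the 4 libraries at 0. Pcsk1 did not pass the filter on low counts and no fold change is given for it. The limit covers counting error only and takes each count as a separate fragment. It would be higher if a fragment added several counts.

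**Figure D2:**
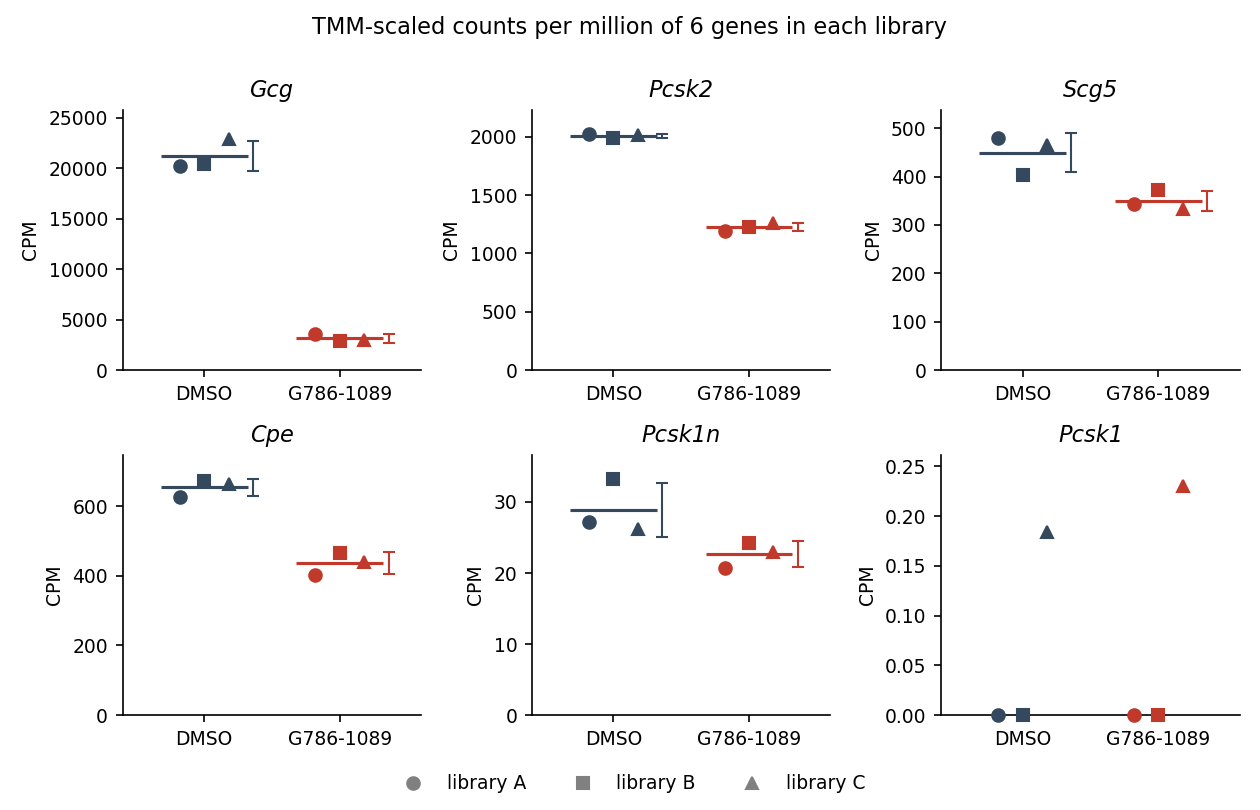
TMM-scaled CPM (vertical axes, from 0) of the 6 genes in the DMSO (dark) and G786-1089 (red) libraries, with a symbol for each library letter, lines at the group means and bars of 1 SD (neither drawn for Pcsk1). The treated libraries lie below the DMSO libraries for all genes but Pcsk1, with Gcg at 2832 to 3603 CPM against 20242 to 22881 CPM.

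Of the 6 genes, 5 had enough counts to be tested, 4 of these were called lower and 0 were called higher. Over all tested genes, 7.80% were called lower, 6.98% higher and 14.8% in either direction. All 5 tested members had groups that did not overlap with G786-1089 lower, against 18.5% of all tested genes. The median log2 fold change of the 5 was -0.59, and that of all tested genes was 0.04. With the column letter as a replicate block, 3 of the 5 were called lower (Gcg, Pcsk2 and Cpe), against 4.69% of all tested genes. None of the 5 was called higher under any alternative. Fewer cells that express a gene and less of its RNA per cell cannot be told apart in these bulk libraries.

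**Figure D3:**
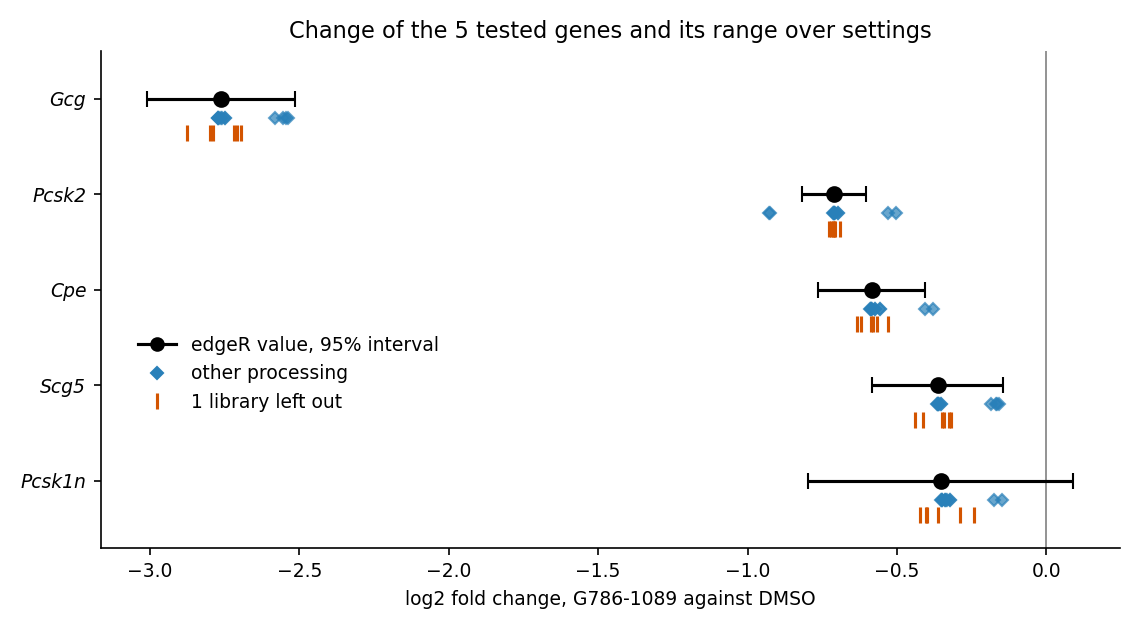
Log2 fold change of G786-1089 against DMSO (horizontal axis) for the 5 tested genes, with edgeR's value and 95% confidence interval in black, the 12 other ways of processing as blue diamonds and the 6 fits without 1 library as orange ticks. All values of Gcg lie between -2.87 and -2.54, and the diamonds of Scg5 fall into a group near the black point and a group between -0.18 and -0.16.

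The order of the members by level per transcript length also differed between the treatments. In FPKM, which the authors scaled by gene length and between libraries, DMSO libraries held 17893 ± 1277 for Gcg, 390 ± 4.06 for Pcsk2, 342 ± 31.5 for Scg5, 284 ± 10.5 for Cpe and 12.1 ± 1.57 for Pcsk1n (SD, n = 3 each). With G786-1089 the FPKM values were 2631 ± 342 for Gcg, 265 ± 17.7 for Scg5, 238 ± 6.54 for Pcsk2, 189 ± 14.4 for Cpe and 9.46 ± 0.804 for Pcsk1n (SD, n = 3 each). Scg5 and Pcsk2 thus exchanged places. Within a treatment, the libraries of neighbours in the order did not overlap, and Pcsk1 was last with at most 0.0418 FPKM. In FPKM, Gcg ranked 1 among all genes in each DMSO library and 11, 15 and 15 with G786-1089.

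Ratios between members within a library do not depend on how libraries are scaled to each other. The ratio of Gcg to Pcsk2 in FPKM was 43.5, 44.7 and 49.3 in the DMSO libraries A, B and C and 13.1, 10.02 and 10.1 in the G786-1089 libraries. Precursor transcripts thus outnumbered those of their convertase in every library, by less with G786-1089. In counts, the log2 ratio of Gcg to Pcsk2 was lower by 2.06 with G786-1089 (difference -2.06, standard error 0.14), a 4.16-fold change. The log2 ratio of Gcg to Cpe differed by -2.18 (standard error 0.17), a 4.53-fold change. The ratio of Scg5 to Pcsk2 in FPKM was 1.12, 1.19 and 1.03 with G786-1089 and 0.928, 0.793 and 0.904 with DMSO, and lay above 1 in every treated library and below 1 in every DMSO library. In counts this log2 ratio differed by 0.35 (standard error 0.09), a 1.27-fold change.

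For each of these 3 ratios the exact two-sided permutation test gave p = 0.1 (adjusted p = 0.1 over the 3), which is the smallest value that 3 libraries against 3 allow, so none could pass 0.05. The other 2 of the 5 ratios planned involve Pcsk1 and could not be formed where it had 0 counts. With offsets for gene length, the log2 fold change was -2.54 for Gcg, -0.93 for Pcsk2 and -0.17 for Scg5, so the distance of Gcg from Pcsk2 was smaller and that of Scg5 from Pcsk2 larger than without them.

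**Figure D4:**
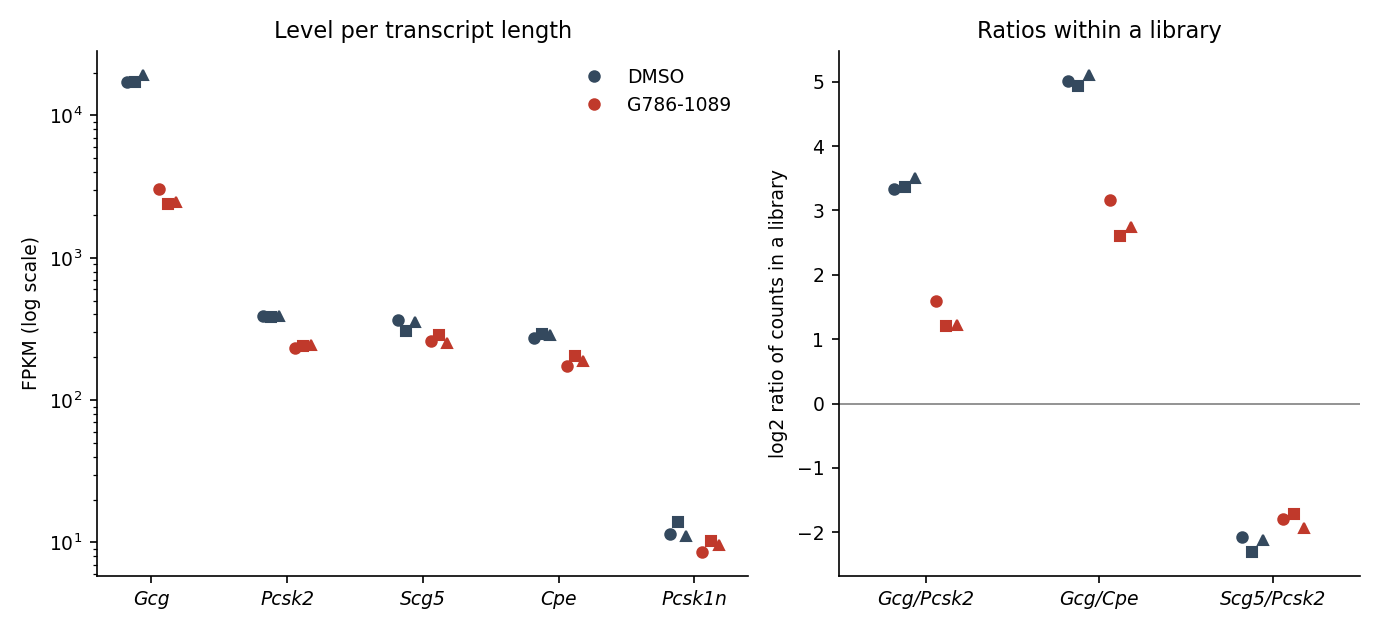
Left, FPKM of 5 genes on a log axis in each DMSO (dark) and G786-1089 (red) library; right, log2 ratio of counts between 2 genes within each library, with a symbol for each library letter (A circle, B square, C triangle). Gcg over Pcsk2 and Gcg over Cpe lie lower in every treated library than in any DMSO library, and Scg5 over Pcsk2 lies higher.

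The promoter of Gcg is shown because the members differ in the short motifs that it holds. Whether these motifs had a part in the changes was not tested. A promoter from RefSeq (GRCm38.p6) matched 5 of the 6 symbols, Cpe being the other. The 250 bases before the start of Gcg, at chr2:62483654-62483903 on the minus strand, hold the letters TATAAA on either strand 2 times (in capitals). They were found in 12.4% of 32851 mouse promoters of this length and 0 times in those of Pcsk1, Pcsk2, Pcsk1n and Scg5.
Gcg promoter: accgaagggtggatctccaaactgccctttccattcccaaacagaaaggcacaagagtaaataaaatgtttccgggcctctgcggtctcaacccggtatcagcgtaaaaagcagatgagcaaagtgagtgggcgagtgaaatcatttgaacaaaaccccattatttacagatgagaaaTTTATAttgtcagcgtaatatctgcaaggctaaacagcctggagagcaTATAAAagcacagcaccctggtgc
The match nearest to the start lies 24 to 19 bases before it. The E-box letters CANNTG, searched on both strands, were found 3 times in Gcg, 3 times in Scg5 and 1 time each in Pcsk2 and Pcsk1n, and in 66.2% of all promoters. The homeodomain core TAAT, which is short and found in 54.9% of promoters, occurred 2 times in Gcg, 2 times in Pcsk1n, 1 time each in Pcsk1 and Scg5 and 0 times in Pcsk2. The cAMP response element TGACGTCA, found in 1.55% of promoters, and the hypoxia response core ACGTG, found in 16.6% and part of the E-box CACGTG, each occurred 1 time in the promoter of Pcsk1 and 0 times in that of Gcg. Bases further upstream were not searched, so these counts do not show whether a motif lies there.

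The genes nearest to Gcg in pattern were taken as those with the smallest root mean square difference in log2 CPM over the 6 libraries, after the DMSO mean of each gene was subtracted, among the 4453 genes that averaged 5 or more in log2 CPM. They were Dnajc12 (0.162), a co-chaperone, Tspan17 (0.169), a tetraspanin, Tmem100 (0.183), a membrane protein, Sln (0.189), the calcium pump regulator sarcolipin, and the imprinted gene Mest (0.217). Their log2 fold changes ran from -2.70 for Sln to -2.54 for Dnajc12. Mest, the most abundant of them, stood at a mean of 132 CPM with G786-1089 and 772 CPM with DMSO. The nearest to Pcsk2 were Hmgn1 (0.0207), Aldh1b1 (0.0323) and Atp5o (0.0509). The nearest to Cpe were Slc2a5 (0.0366), Ndufa2 (0.0392) and Snx17 (0.0483), those to Scg5 were Idh3g (0.0422), Myl12a (0.0496) and Spcs2 (0.0627), and those to Pcsk1n were Chchd6 (0.0493), Creld1 (0.0521) and Rtca (0.0556). With 2 groups and 6 libraries this measure mostly follows the size of the difference between the groups.

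Other enzymes that cut and modify prohormones were not called in either direction. Over all tested genes 14.8% were called. Of 7 other proprotein convertases, 4 were tested and 0 called, with log2 fold changes from -3.38 for Pcsk6, which had few counts in every library, to 0.58 for Pcsk7. Of 12 other trimming and modifying enzymes, 7 were tested and 0 called. They include Pam, which amidates peptides, at 103 ± 15.7 CPM against 111 ± 16.9 CPM (SD, n = 3 each). The median log2 fold change was -0.42 in the first list and -0.16 in the second. The first median rests in part on Furin, at 0.450 ± 0.191 CPM with G786-1089 against 0.834 ± 0.455 CPM with DMSO (SD, n = 3 each).

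Of the 15 genes of the signal recognition particle and the signal peptidase, which bring preproglucagon into the endoplasmic reticulum and remove its signal peptide, all were tested, 4 were called lower and 0 higher (median log2 fold change -0.12). Over all tested genes 7.80% were called lower. With the replicate block, 2 of the 15 stayed called lower, against 4.69% of all tested genes. The 4 called without the block were the signal peptidase genes Sec11c, Spcs1 and Spcs2 and the particle gene Srp9. Sec11c fell from 226 ± 20.2 CPM to 143 ± 7.41 CPM (log2 fold change -0.66, edgeR adjusted p = 0.00727). Srp9 fell from 412 ± 19.9 CPM to 275 ± 27.2 CPM (log2 fold change -0.58, edgeR adjusted p = 0.00945). Spcs1 and Spcs2 were named because the count is small, and neither was called with library size as the only scaling or with the replicate block (adjusted p = 0.0666 and 0.0767).

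The granins, acidic proteins stored with the hormone in secretory granules, included calls in both directions. Of 5 tested, Chga was called lower, at 839 ± 51.6 CPM against 1829 ± 137 CPM (log2 fold change -1.12, edgeR adjusted p = 0.000412). Scg2 was called higher, at 491 ± 19.0 CPM against 395 ± 23.9 CPM (log2 fold change 0.32, edgeR adjusted p = 0.0337), but not with the replicate block (adjusted p = 0.0905). The median log2 fold change of the granins was -0.21. Of 24 other peptide hormone and neuropeptide precursors, 14 had 0 counts in every library, 5 were tested and 0 were called (median log2 fold change 0.74). Among these precursors, Iapp, Ins2 and Pnoc had few counts, with group means of at most 1.27 CPM. Of 7 receptors and degrading enzymes of proglucagon peptides, 3 were tested and 0 called (median 1.28). That median is the value of Mme alone, at 2.98 ± 3.70 CPM with G786-1089 against 1.23 ± 1.30 CPM with DMSO (SD, n = 3 each). Of 13 granule acidification and calcium pump genes, all were tested, 3 were called lower and 0 higher (median 0.02), among them the proton pump genes Atp6ap1 (log2 fold change -0.81, edgeR adjusted p = 0.0012) and Atp6v0c (log2 fold change -0.43, edgeR adjusted p = 0.0167). The third was Atp6ap2, named for the small count, and it and Atp6v0c were not called with library size as the only scaling or with the replicate block (adjusted p = 0.11 and 0.052). With the block, 1 of these 13 genes stayed called lower, against 4.69% of all tested genes. Without it, 7.80% of all tested genes were called lower and 6.98% higher.

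Of 17 transcription factors and co-activators known to act on the glucagon gene, 13 were tested and 4 had 0 counts in every library. Among the 13 tested, 4 were called lower and 0 higher. The median log2 fold change was -0.64. Over all tested genes 7.80% were called lower. With the replicate block, 2 of the 13 stayed called lower, against 4.69% of all tested genes. Neurod1, which binds E-boxes, fell from 141 ± 10.2 CPM to 65.3 ± 11.6 CPM (log2 fold change -1.11, edgeR adjusted p = 0.00599), and Isl1, a homeodomain factor, from 627 ± 26.9 CPM to 381 ± 50.3 CPM (log2 fold change -0.72, edgeR adjusted p = 0.00659). The other two, Irx2 and Ctnnb1, were named for the small count, Irx2 was not called with library size as the only scaling, and neither was called with the replicate block (adjusted p = 0.0856 and 0.0716).

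**Figure D5:**
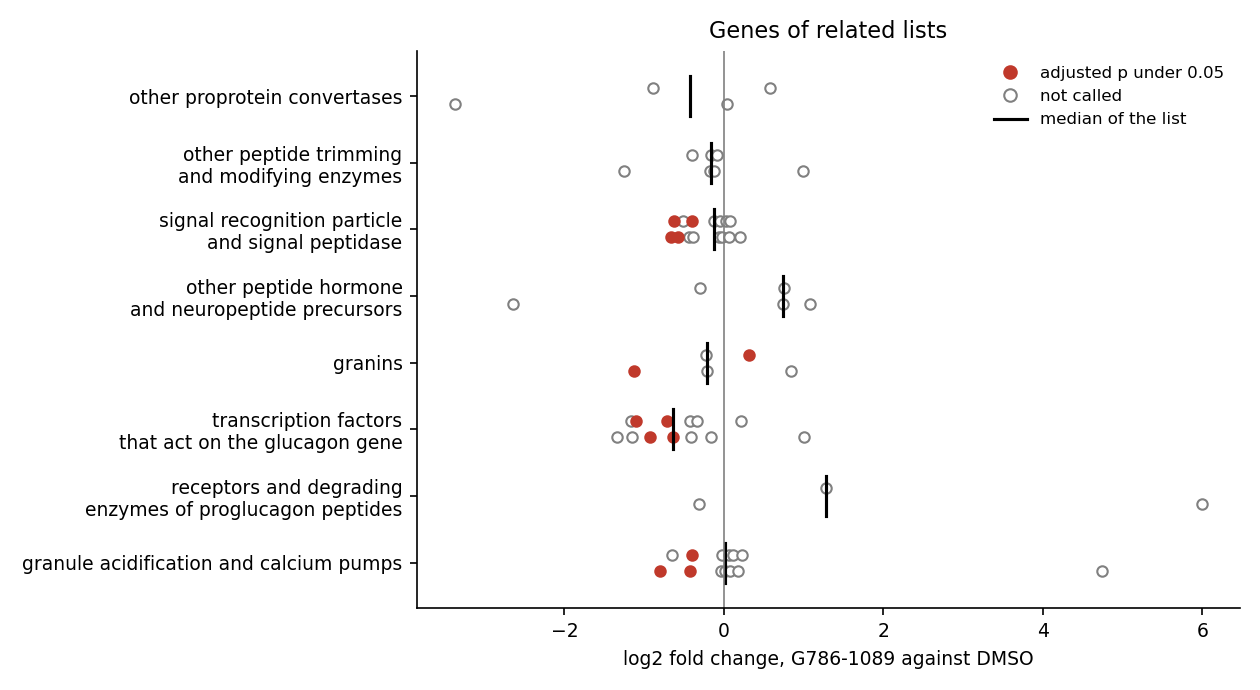
Log2 fold change of G786-1089 against DMSO (horizontal axis) of the tested genes in 8 lists around proglucagon processing, with genes at an adjusted p under 0.05 in red, others open and a bar at the median of each list. Of the called genes, Scg2 alone lies to the right of 0.

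The libraries were checked against α cell markers and for other differences between the groups. Of 9 α cell markers, Gcg was by far the most abundant, Irx2 stood at 162 to 336 CPM, and Gc had 0 counts in every library. The summed level of 7 β cell markers was 4.82 to 11.4 CPM with G786-1089 and 10.3 to 15.4 CPM with DMSO, with Ins1 and Pdx1 at 0 counts. Most of this sum was Nkx6-1, at 4.70 to 9.80 CPM with G786-1089 and 8.62 to 14.6 CPM with DMSO. It was not called (edgeR adjusted p = 0.321). The δ, PP and enteroendocrine markers were at 0 counts in every library, and no summed level of the epsilon, acinar, duct, immune, fibroblast or endothelial markers passed 5.03 CPM. Every G786-1089 library was deeper, with totals of 70150880 to 94747943 counts against 59070705 to 69480568. Mitochondrial genes held 2.96% to 3.57% of counts with G786-1089 and 2.27% to 2.76% with DMSO. TMM factors were 1.06 to 1.10 with G786-1089 and 0.921 to 0.938 with DMSO. The part of these differences in the results was not tested.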

How the data were processed

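Smart-seq2 libraries, tagmented with Nextera XT, were sequenced as 100-bp pairs. The authors aligned reads to GRCm38 with STAR and deposited counts per gene, not normalized and counted irrespective of strand, and FPKM values scaled by gene length and between libraries (the submitters' processing notes list STAR 2.7.9a). Of the deposited counts between 1 and 10, 78.1% were even numbers, and 1 fragment may add more than 1 count. The test of counts used edgeR 4.0.16 in R 4.3.3: filterByExpr (minimum count 10, total 15), TMM factors, the quasi-likelihood test and Benjamini-Hochberg adjustment over all tested genes, called under 0.05. Standard errors were derived from the F statistic and the log2 fold change. At 59070705 to 94747943 counts a library, counting error is small for all members but Pcsk1. Within-library ratios were compared by exact permutation (SciPy 1.17.1). Alternatives were DESeq2 1.42.0, limma 3.58.1 on log2 FPKM, other scalings, filters and length offsets, a replicate block and each library left out. The fits were tested on simulated data. Column letters could not be matched to replicate numbers. The study's methods state that samples of a replicate were handled together, so libraries with the same letter may be paired by design, and the letter was used as the replicate block. Correlations of their deviations from the group means were 0.00274 to 0.0251 across genes, and -0.0272 to 0.0121 for libraries with different letters. The members and lists were chosen with earlier results of these data known, written from general knowledge. Genes named are the members, up to 2 called genes per list and direction with the smallest p-values, and those nearest in pattern. The last are the 5 genes nearest to Gcg and 3 nearest to each other member. Genes needed for a count of 5 or fewer are named too, as are some that show the limits of a list's median or range. Positions, exons and coding sequences are from GENCODE vM21, in which 99.4% of 55141 matched genes had the same coordinates. Near-identical copies (blastn 2.17.0, at least 100 bases at 95% identity) were the overlapping genes named. Percentages spliced-in were not analysed here.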

Additional observations from a re-analysis of the deposited data

How the results depend on the processing

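Of the 5 tested genes, Gcg, Pcsk2 and Cpe were called lower in all 12 other ways of processing and in all 6 fits that left out 1 library, Pcsk1n in none of them, and none of the 5 changed direction. Over the 12, the log2 fold change ran from -2.77 to -2.54 for Gcg, from -0.93 to -0.50 for Pcsk2, from -0.59 to -0.38 for Cpe and from -0.35 to -0.15 for Pcsk1n. Scg5 was called in 5 of the 12. Its log2 fold change was -0.16 with library size only (adjusted p = 0.289), -0.18 with library size without the 6 members (0.222), -0.35 with every gene of at least 1 count tested (0.088), -0.36 by limma on log2(FPKM + 1) without a minimum (0.0785) and -0.17 with length offsets (0.31). Leaving out 1 library gave -0.44 to -0.32. The replicate block by column letter gave -0.36 for Scg5 (adjusted p = 0.123), and -0.17 with length offsets (0.425), and ended no other member's call. Whether a letter stands for samples handled together is not stated. The total of called genes, 2230, was 4298 by DESeq2 (2181 higher, 2117 lower), 1232 with the replicate block (524 higher, 708 lower), 977 with the replicate block and length offsets (400 higher, 577 lower) and 1253 to 1556 without 1 library (545 to 613 higher, 706 to 943 lower). Library size only moved the median log2 fold change of all genes by 0.20, called 1630 genes higher and 796 lower, and raised the share of higher calls from 47.2% to 67.2% (64.8% without the members, with 1528 higher). Unadjusted p was under 0.05 for 4238 genes. The 3 within-library ratios moved by less than 1 pooled within-group SD without each library. With FPKM in place of counts their differences between the groups could not change, because fixed gene lengths cancel. The block could not change them either, because each letter has 1 library in each group. Length offsets were not run on the ratios. The causes of these changes were not tested. Pcsk1 did not pass the low-count filter of the edgeR test, and no value is given for it where a looser filter let it in.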
